A study of Saccharomyces cerevisiae with 18 samples.

Results

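Phosphate signalling in budding yeast ends in the activation of a small set of genes, and 10 genes of that pathway are described here across strains that carry wild-type Spn1 or either of 2 *spn1* alleles. The 10 genes are the regulators *PHO81*, *PHO80*, *PHO85*, *PHO4*, *PHO2* and *SPL2* and the polyphosphate polymerase subunits *VTC1*, *VTC2*, *VTC3* and *VTC4*. They were chosen by name, as rows of an expression matrix of 6577 genes, and all 10 were found and passed the filter on low values. Spn1 is an essential histone chaperone that travels with RNA polymerase II (RNAPII).

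RNA was sequenced from 9 cultures, 3 per genotype. Yeast with *spn1 K192N* (BY4741 spn1delta::LEU2 + pCR312) carry a substitution that weakens the recruitment of Spn1 to RNAPII. Yeast with *spn1 141-305* (BY4741 spn1delta::LEU2 + pAA344) carry a truncated protein that keeps the central domain and lacks the terminal regions that bind histones and nucleosomes. Wild-type (WT) libraries are labelled with the parental genotype MATa his3delta1 leu2delta0 met15delta0 ura3delta0, whereas the methods describe all 3 strains as deleted for chromosomal *SPN1* and carrying the tagged allele on a *HIS3* plasmid under its native promoter. A separate strain label differs in each of the 9 libraries and was not used. All cultures grew in rich dextrose medium without a phosphate starvation step, and cells of *Schizosaccharomyces pombe* were added to each as a spike-in.

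When phosphate is plentiful, the cyclin Pho80 and the kinase Pho85 phosphorylate the transcription factor Pho4, which then leaves the nucleus. When phosphate is scarce, the inhibitor Pho81 blocks the kinase, and Pho4 enters the nucleus and activates its targets together with the homeodomain factor Pho2. Pho4 binds the E-box CACGTG and, more weakly, the related CACGTT. Its targets are known to include the phosphate transporters and phosphatases and also *PHO81*, *SPL2* and the *VTC* genes. The VTC complex at the vacuole polymerises phosphate from ATP into polyphosphate, the main phosphate store of the cell. Pho81 and the VTC subunits other than Vtc1 carry SPX domains, which bind inositol pyrophosphates and so sense phosphate.

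The E-box was searched on both strands in the 600 bases before each start codon, because it is the sequence through which Pho4 is known to reach these genes. CACGTG was present before 6 of the 10 genes, namely *PHO81*, *SPL2*, *VTC1*, *VTC2*, *VTC3* and *VTC4*, and before 428 of 5873 promoters searched (7.29%). It was not found in this window of *PHO80*, *PHO85*, *PHO4* or *PHO2*. The sequences below are printed 5′ to 3′ on the strand of the gene from the RefSeq R64 assembly, with 20 bases on either side and the E-box in capitals.
PHO81, chrVII:958529-958574, minus strand: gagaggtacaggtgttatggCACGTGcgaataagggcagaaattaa
SPL2, chrVIII:375436-375481, minus strand: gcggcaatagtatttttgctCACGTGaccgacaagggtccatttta
SPL2, chrVIII:375106-375267, minus strand: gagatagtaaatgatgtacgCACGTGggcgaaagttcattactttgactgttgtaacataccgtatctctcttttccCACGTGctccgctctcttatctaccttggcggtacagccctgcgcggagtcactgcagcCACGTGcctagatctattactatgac
VTC4, chrX:413487-413544, minus strand: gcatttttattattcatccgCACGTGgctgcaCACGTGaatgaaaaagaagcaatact
VTC1, chrV:302629-302674, plus strand: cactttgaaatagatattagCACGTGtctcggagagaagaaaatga
VTC2, chrVI:131479-131524, plus strand: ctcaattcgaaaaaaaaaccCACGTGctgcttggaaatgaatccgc
VTC3, chrXVI:517304-517383, minus strand: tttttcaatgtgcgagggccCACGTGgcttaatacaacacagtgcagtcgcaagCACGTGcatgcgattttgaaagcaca

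Counted back from the start codon, the first base of the E-box lay 344 bases upstream in *PHO81*, 157 in *VTC1* and 311 in *VTC2*. *VTC3* had a pair of E-boxes, 345 and 311 bases upstream, and *VTC4* had a pair separated by only 6 bases, the first of them 125 bases upstream. *SPL2* had 4, at 361, 147, 90 and 31 bases. The weaker word CACGTT, which cannot match the same 6 bases, was found in 19% of promoters and before *PHO80*, *PHO85*, *PHO81* and *VTC3*, so 8 of the 10 genes held at least 1 of the words, against 24.6% of all promoters. With 300 bases searched, 3 genes kept an E-box (*VTC1*, *SPL2* and *VTC4*, against 3.63% of promoters), and with 1000 bases the number stayed at 6 (10.9% of promoters). A match is a description of the letters and not a measurement of Pho4 binding.

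**Figure D1:**
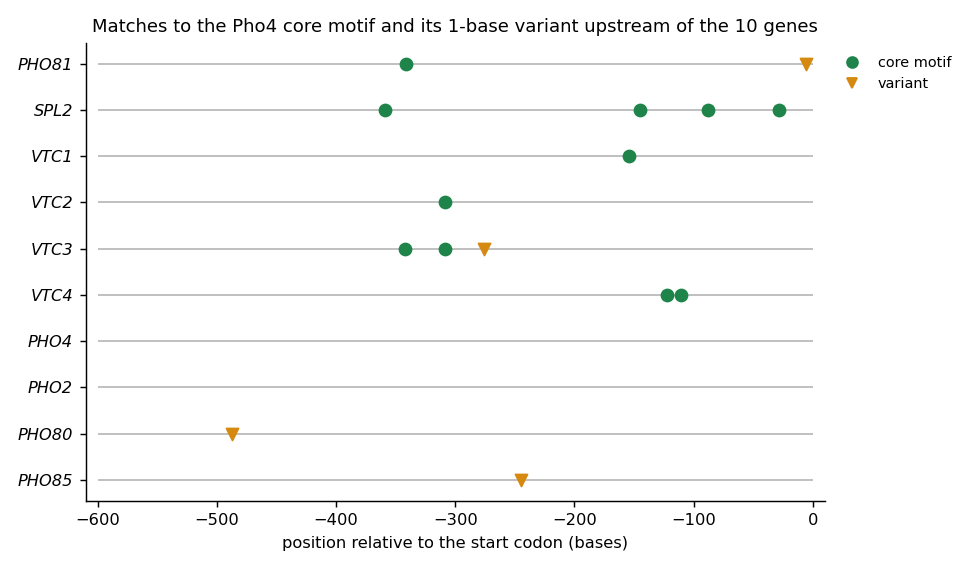
Positions of the E-box CACGTG and of the related word CACGTT in the 600 bases before the start codons of the 10 genes (rows), with position relative to the start codon in bases on the horizontal axis. Circles mark CACGTG (core motif) and triangles CACGTT (variant). *SPL2* has 4 E-boxes, *VTC3* and *VTC4* have 2 each, and *PHO80*, *PHO85*, *PHO4* and *PHO2* have none.

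Expression is given as rlog values, the regularized log2 scale of DESeq2 that the authors deposited after scaling to the spike-in. A difference of 1 on this scale is a doubling, and the transformation shrinks differences, most of all at low levels. Read counts were not used here, so depth is unknown and no counting error is given. *SPN1* itself stood at 13.62, 12.55 and 12.28 in *spn1 K192N*, at 11.06, 11.07 and 11.79 in *spn1 141-305*, and at 12.27, 12.95 and 11.66 in WT. Only *spn1 141-305* was called lower than WT for *SPN1* (log2 fold change −0.99, adjusted p = 0.00638), and its allele lacks part of the gene. A library whose median gene stands high or low shifts all genes together. The authors, who scaled to the spike-in, read the lower levels in both mutants as a global reduction in RNA. The median over genes of a library's deviation from the mean of the 9 libraries lay between −0.062 and 0.061 in *spn1 K192N*, between −0.052 and −0.027 in *spn1 141-305*, and between 0.018 and 0.113 in WT. Replicate 1 of *spn1 K192N* stood apart from its other 2 libraries and was the highest of the 3 for 9 of the 10 genes, so results are also given without it.

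Genes were called with limma at a Benjamini-Hochberg adjusted p below 0.05, over the 5954 genes tested. In *spn1 K192N* against WT, 6 of the 10 genes were called lower and 0 higher, where 4.80% of all tested genes were called lower and 0.403% higher. The 6 were *PHO81*, *SPL2* and *VTC1* to *VTC4*, the genes with an E-box in the 600 bases searched. For the same 6 genes every *spn1 K192N* library lay below every WT library, which was so for 18.8% of all tested genes. At an unadjusted p below 0.05, 8 of the 10 were lower and 0 higher, where 22.6% of all tested genes were lower. In *spn1 141-305* against WT, 5 of the 10 were called lower and 0 higher, where 18.8% of all tested genes were called lower and 0.453% higher. Every *spn1 141-305* library lay below every WT library for 6 genes, against 45.0% of all tested genes. These 6 were *PHO81*, *SPL2*, *VTC2*, *VTC3*, *VTC4* and *PHO85*. *PHO85* has no E-box in the 600 bases searched, while *VTC1*, which has an E-box there, overlapped with WT. At an unadjusted p below 0.05, 7 were lower and 0 higher, where 34.8% of all tested genes were lower. Both contrasts use the same 3 WT libraries.

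*PHO81* encodes the inhibitor of the Pho80-Pho85 kinase and is the switch of the pathway. Its rlog was 10.63, 10.27 and 10.18 in *spn1 K192N*, 10.63, 10.63 and 10.53 in *spn1 141-305*, against 11.10, 11.11 and 10.99 in WT. All 6 mutant libraries lay below all WT libraries, and replicate 1 of *spn1 K192N* stood level with the *spn1 141-305* libraries. The means were 10.36 ± 0.24, 10.59 ± 0.058 and 11.07 ± 0.068 in that order of genotypes (SD, n = 3 each). The fall in *spn1 K192N* was −0.71 on the log2 scale (standard error 0.09, 95% interval −0.89 to −0.53, adjusted p = 3.75e-06), a ratio of 0.611 and the 13th lowest of 5954 fold changes. In *spn1 141-305* it was −0.47 (standard error 0.09, 95% interval −0.65 to −0.29, adjusted p = 0.000757). *PHO81* (chrVII:954674-958210, minus strand) is the longest of the 10 genes at 3537 bases.

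*SPL2* encodes a small protein that holds back the low-affinity phosphate transporters when phosphate is short. Its rlog was 7.17, 7.06 and 7.02 in *spn1 K192N*, 7.25, 7.17 and 7.33 in *spn1 141-305*, against 7.54, 7.41 and 7.37 in WT. Both sets of mutant libraries lay below WT, by a narrow gap in *spn1 141-305*. Its fold change came to −0.35 in *spn1 K192N* (standard error 0.06, adjusted p = 0.000151), and to −0.19 in *spn1 141-305* (standard error 0.06, adjusted p = 0.0192). *SPL2* (chrVIII:374654-375100, minus strand) has the lowest rlog of the 10 genes before any correction for length, where the transformation shrinks most.

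All 4 VTC genes fell in *spn1 K192N*, and 3 of the 4 in *spn1 141-305*. *VTC4* (chrX:411234-413399, minus strand) encodes the catalytic subunit that polymerises phosphate. Its rlog was 12.72, 12.36 and 12.19 in *spn1 K192N*, 12.84, 12.86 and 12.78 in *spn1 141-305*, against 13.20, 13.10 and 13.02 in WT. The genotypes did not overlap, and *spn1 K192N* was the lowest. *VTC4* had a fold change of −0.68 in *spn1 K192N* (standard error 0.10, adjusted p = 4.43e-05). That of *spn1 141-305*, −0.28, passed only just (standard error 0.10, adjusted p = 0.0492).

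*VTC3* (chrXVI:514511-517018, minus strand) encodes an accessory subunit of the vacuolar form of the complex. It had the largest fall of the 10 genes in *spn1 K192N*. Its rlog was 12.04, 11.75 and 11.56 in *spn1 K192N*, 12.28, 12.23 and 12.30 in *spn1 141-305*, against 12.79, 12.73 and 12.55 in WT. The genotypes again formed separate ranges. In *spn1 K192N* the fold change was −0.90 (standard error 0.09, 95% interval −1.10 to −0.71, adjusted p = 2.55e-07), a ratio of 0.535 and the 8th lowest of all tested genes. In *spn1 141-305* it was −0.42 (standard error 0.09, adjusted p = 0.00383).

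*VTC2* (chrVI:131810-134296, plus strand) encodes the accessory subunit that takes the place of Vtc3 in a second form of the complex. Its rlog was 11.39, 11.15 and 11.20 in *spn1 K192N*, 11.34, 11.46 and 11.43 in *spn1 141-305*, against 11.73, 11.71 and 11.55 in WT. The mutants overlapped each other and both lay below WT. *VTC2* was called lower in *spn1 K192N*, with −0.42 (standard error 0.08, adjusted p = 0.00169), and in *spn1 141-305*, with −0.26 (standard error 0.08, adjusted p = 0.0261).

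*VTC1* (chrV:302806-303195, plus strand) encodes the small membrane subunit shared by both forms. Its rlog was 11.70, 11.45 and 11.41 in *spn1 K192N*, 11.91, 11.85 and 12.04 in *spn1 141-305*, against 12.26, 12.17 and 12.03 in WT. Replicate 3 of *spn1 141-305* lay just above replicate 3 of WT, so these genotypes overlapped, while *spn1 K192N* was below both. In *spn1 K192N* the fold change of *VTC1* was −0.63 (standard error 0.09, adjusted p = 2.05e-05). In *spn1 141-305* its fold change of −0.22 did not pass the test (95% interval −0.40 to −0.04, adjusted p = 0.0709).

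**Figure D2:**
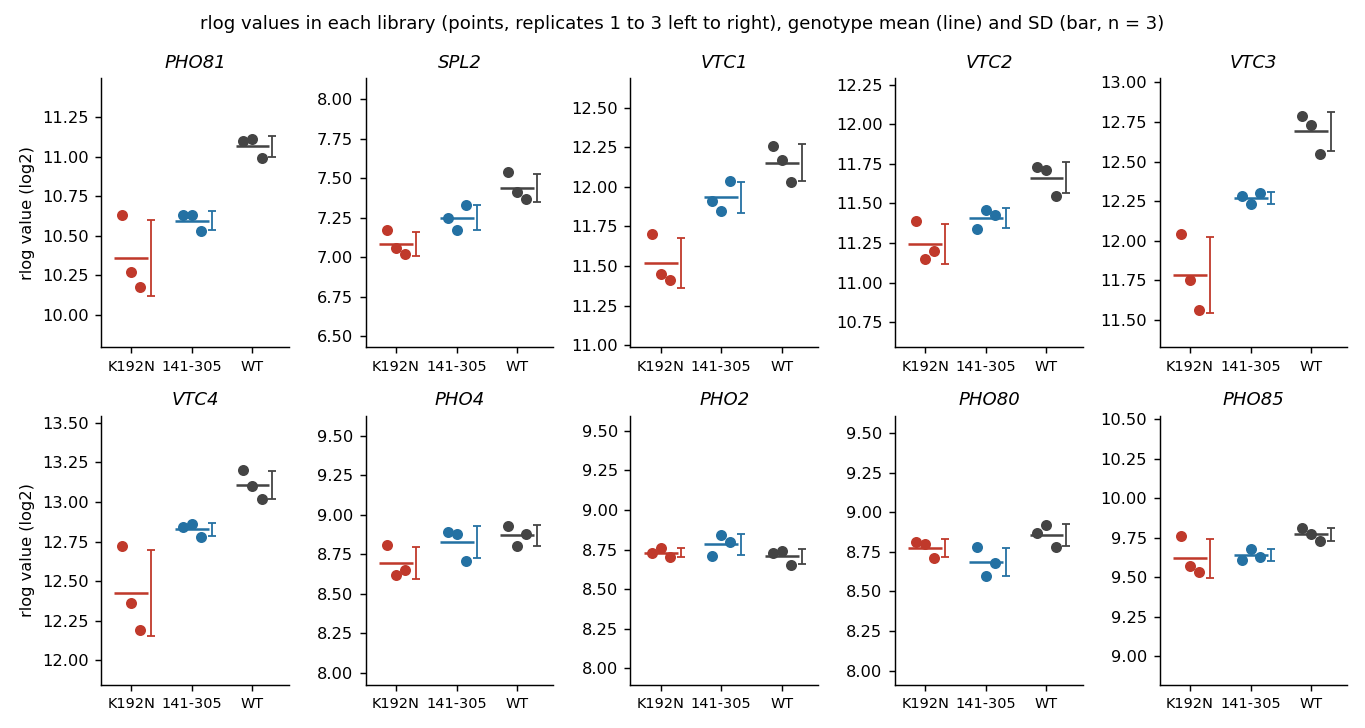
The rlog value of each of the 10 genes in the 9 libraries, with 1 point per library, a horizontal line at the genotype mean and a bar beside it for the SD (n = 3). In *PHO81*, *SPL2*, *VTC2*, *VTC3* and *VTC4* all mutant libraries lie below all WT libraries, while *PHO4*, *PHO2* and *PHO80* overlap between genotypes.

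The transcription factors did not pass the test in either mutant. *PHO4* (chrVI:225020-225958, minus strand) stood at 8.81, 8.62 and 8.65 in *spn1 K192N*, at 8.89, 8.88 and 8.71 in *spn1 141-305*, and at 8.93, 8.80 and 8.88 in WT. *PHO4* had −0.18 on the log2 scale in *spn1 K192N* (95% interval −0.31 to −0.04, adjusted p = 0.113) and −0.04 in *spn1 141-305* (95% interval −0.18 to 0.10, adjusted p = 0.681). *PHO2* (chrIV:270222-271901, minus strand) was between 8.70 and 8.76 in *spn1 K192N*, between 8.71 and 8.84 in *spn1 141-305*, and between 8.65 and 8.74 in WT. The intervals for *PHO2* ran from −0.10 to 0.15 in *spn1 K192N* and from −0.05 to 0.20 in *spn1 141-305*, so a fall as large as that of *PHO81* lay outside them.

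The cyclin and the kinase likewise did not pass. *PHO80* (chrXV:325249-326130, plus strand) stood at 8.81, 8.80 and 8.71 in *spn1 K192N*, at 8.78, 8.60 and 8.68 in *spn1 141-305*, and at 8.87, 8.92 and 8.78 in WT. Against WT *PHO80* had −0.09 in *spn1 K192N* (95% interval −0.22 to 0.04, adjusted p = 0.404) and −0.17 in *spn1 141-305* (95% interval −0.30 to −0.04, adjusted p = 0.0566). *PHO85* (chrXVI:492018-493037, minus strand) was 9.76, 9.57 and 9.53 in *spn1 K192N*, 9.61, 9.68 and 9.63 in *spn1 141-305*, against 9.81, 9.77 and 9.73 in WT. Although the *spn1 141-305* libraries of *PHO85* lay below WT, the fold changes of −0.15 in *spn1 K192N* (adjusted p = 0.19) and −0.13 in *spn1 141-305* (adjusted p = 0.167) did not pass.

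The split between the genes with and without an E-box can also be read in each library. Relative to the WT mean, the median of the 6 E-box genes was −0.41, −0.73 and −0.82 in *spn1 K192N* and −0.30, −0.29 and −0.28 in *spn1 141-305*. The median of the other 4 genes was −0.03, −0.13 and −0.18 in *spn1 K192N* and −0.03, −0.04 and −0.15 in *spn1 141-305*. The median gene of all those tested had −0.08 in *spn1 K192N* and −0.09 in *spn1 141-305*. Centring libraries on their median gene takes out an offset of a library and a global change in RNA alike, and these cannot be told apart here. After such centring all 6 genes stayed called in *spn1 K192N*, where 3.24% of all genes were called lower. In *spn1 141-305* only *PHO81* (−0.37, adjusted p = 0.00126) and *VTC3* (−0.32, adjusted p = 0.00527) stayed called lower, where 8.67% of all genes were, and *PHO2* was called higher (0.18, adjusted p = 0.0305).

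Without replicate 1 of *spn1 K192N*, the falls of the 6 genes in that strain ranged from −1.03 for *VTC3* to −0.40 for *SPL2*. *PHO4* (−0.23, adjusted p = 0.00573) and *PHO85* (−0.22, adjusted p = 0.00847) were then also called lower, while 2031 of all genes were called lower in place of 286. Without replicate 1 of WT, all 6 calls in *spn1 K192N* held, with 50 genes called lower over all. In *spn1 141-305* without that WT library only *PHO81* stayed called (adjusted p = 0.0212), *VTC3* missed the threshold (adjusted p = 0.0586), and 278 of all genes were called lower in place of 1120. In these bulk cultures a lower level in every cell and a smaller share of cells with a high level cannot be told apart.

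The 2 alleles were also compared with each other. In *spn1 141-305* against *spn1 K192N*, 3 of the 10 genes were called higher and 0 lower, where 0.621% of all tested genes were called higher and 1.28% lower. At an unadjusted p below 0.05, 5 were higher and 0 lower, where 3.46% of all tested genes were higher. The 3 were *VTC3* (0.49, 95% interval 0.29 to 0.68, adjusted p = 0.00463), *VTC1* (0.42, 95% interval 0.24 to 0.59, adjusted p = 0.00806) and *VTC4* (0.41, 95% interval 0.20 to 0.61, adjusted p = 0.0234). All *spn1 141-305* libraries lay above all *spn1 K192N* libraries for these 3 genes, as for 4.55% of tested genes. *PHO81* (0.24, adjusted p = 0.202), *SPL2* (0.16, adjusted p = 0.154) and *VTC2* (0.16, adjusted p = 0.411) did not pass, and the intervals ran from 0.06 to 0.42 for *PHO81*, from 0.05 to 0.28 for *SPL2* and up to 0.32, with 0 included, for *VTC2*. With centred libraries *PHO81* (adjusted p = 0.0311) and *SPL2* (adjusted p = 0.0379) were called higher too, where 1.71% of all genes were, and both were also called without replicate 1 of *spn1 K192N*.

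**Figure D3:**
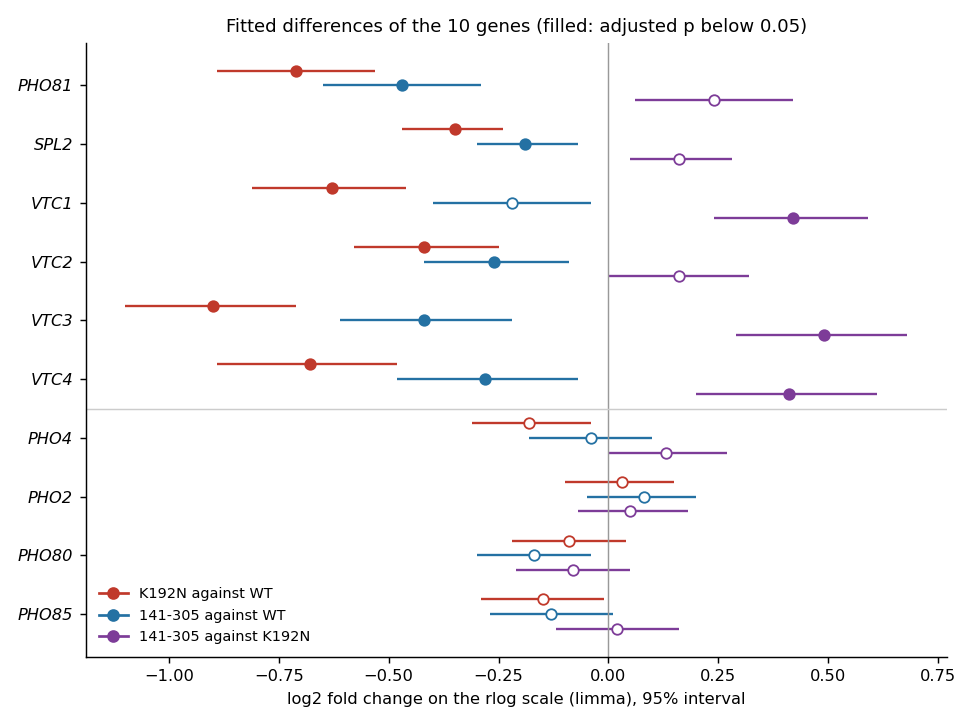
Fitted log2 fold changes of the 10 genes with their 95% intervals in the 3 comparisons, with filled points for genes past an adjusted p of 0.05. In *spn1 K192N* against WT the 6 E-box genes lie between −0.90 and −0.35, and the other 4 lie between −0.18 and 0.03.

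Because a shift of a whole library cancels in a difference between 2 genes of the same library, 4 pairs of partner genes were compared within libraries. *VTC3* minus *VTC2*, the accessory subunits that replace each other, was 0.65, 0.60 and 0.36 in *spn1 K192N*, 0.95, 0.77 and 0.87 in *spn1 141-305*, against 1.05, 1.02 and 0.99 in WT. The 3 genotypes did not overlap, with means of 0.54 ± 0.16, 0.86 ± 0.089 and 1.02 ± 0.029 in the same order (SD, n = 3 each). *PHO81* minus *PHO80*, the inhibitor against the cyclin, was 1.82, 1.47 and 1.47 in *spn1 K192N*, 1.84, 2.03 and 1.85 in *spn1 141-305*, against 2.23, 2.19 and 2.21 in WT. Here too no genotypes overlapped, by 0.02 between the mutants. With 3 libraries against 3 the exact two-sided permutation test cannot go below p = 0.1, and both pairs gave that value in all 3 comparisons (adjusted p = 0.2 over 12 tests). How often other pairs of genes separate the 3 genotypes was not counted.

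The other 2 pairs kept their differences within the spread between libraries. *VTC4* minus *VTC1*, the catalytic and the membrane subunit, averaged 0.90 ± 0.12 in *spn1 K192N*, 0.90 ± 0.14 in *spn1 141-305* and 0.95 ± 0.031 in WT (SD, n = 3 each, exact permutation p = 0.7 for each mutant against WT). *PHO80* minus *PHO85*, the cyclin and its kinase, averaged −0.85 ± 0.092 in *spn1 K192N*, −0.95 ± 0.13 in *spn1 141-305* and −0.91 ± 0.051 in WT (SD, n = 3 each), with exact permutation p = 0.4 and p = 0.7 against WT in the same order of mutants.

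**Figure D4:**
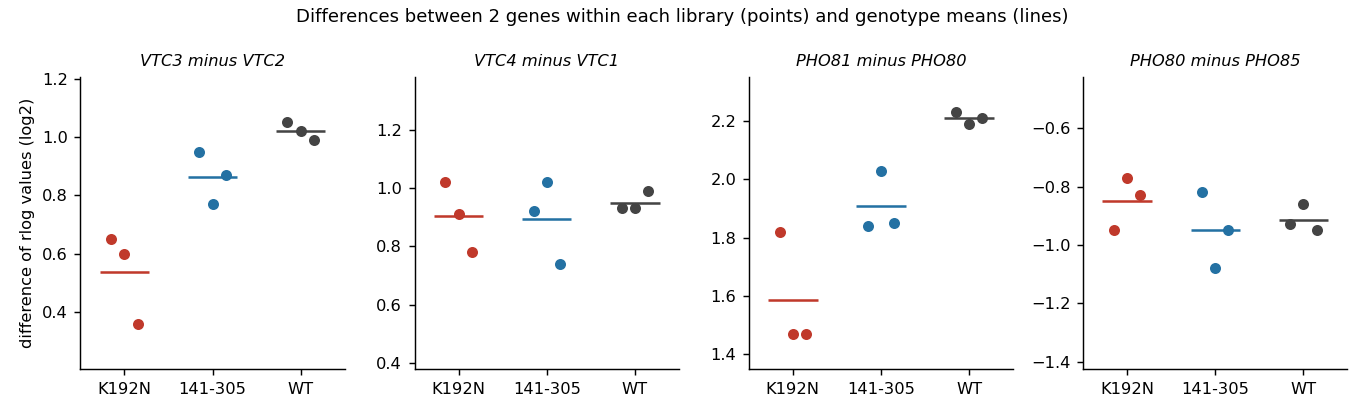
Within-library rlog differences for 4 pairs of partner genes, with 1 point per library and a line at the mean of each genotype. *VTC3* minus *VTC2* and *PHO81* minus *PHO80* separate the 3 genotypes, while *VTC4* minus *VTC1* and *PHO80* minus *PHO85* overlap.

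To set the levels of different genes side by side, log2 of the coding length in kb was taken from the rlog value. On this scale the mean level of *VTC1* was highest in WT at 13.51, followed by *VTC4* at 11.99, *VTC3* at 11.36, *VTC2* at 10.35 and *PHO85* at 9.89. *PHO81* came next at 9.24, then *PHO80* at 9.04, *PHO4* at 8.96, *SPL2* at 8.60 and *PHO2* at 7.96. Among neighbours in this order only *PHO80* and *PHO4* overlapped across WT libraries. *PHO81* was 6th of the 10 genes in WT and 8th in both mutants, with mean levels of 8.53 in *spn1 K192N* and 8.77 in *spn1 141-305*, below the means of *PHO80* (8.95 and 8.87) and *PHO4* (8.78 and 8.92). In WT the lowest library of *PHO81* (9.17) lay above the highest of *PHO80* (9.10), and in *spn1 K192N* the highest library of *PHO81* (8.81) lay below the lowest of *PHO80* (8.89). The ranges overlapped in *spn1 141-305*. *PHO80* and *PHO4* moved up by 1 or 2 places in the mutants or stayed, and the remaining 7 genes kept theirs.

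Long genes fell more often in this experiment, so the 10 genes are given with the genes of their length. In the quartile of the longest genes (1917 to 14733 bases), which holds *PHO81*, *VTC2*, *VTC3* and *VTC4*, 8.41% of genes were called lower in *spn1 K192N* and 45.1% in *spn1 141-305*, with median fold changes of −0.13 and −0.19. In the quartile of the shortest genes (153 to 777 bases), which holds *SPL2* (447 bases) and *VTC1* (390 bases), 2.22% were called lower in *spn1 K192N* and 4.01% in *spn1 141-305*, with medians of −0.04 and −0.03. In the second quartile (780 to 1248 bases), which holds *PHO4*, *PHO80* and *PHO85*, 4.25% were called lower in *spn1 K192N* and 10.4% in *spn1 141-305*. In the third quartile (1251 to 1914 bases), which holds *PHO2*, it was 4.82% in *spn1 K192N* and 19.4% in *spn1 141-305*. *VTC1*, with −0.63 in *spn1 K192N*, was thus among the short genes and fell nearly as far as the much longer *VTC4*. The part of gene length in these falls was not tested.

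Most other genes with an E-box were not called. Of the 403 other tested genes with CACGTG in the same window, 33 were called lower in *spn1 K192N* (8.19%) and 95 in *spn1 141-305* (23.6%). Other genes of the pathway were not left out of the 403. The 33 include *PHO5*, *PHO8*, *PHO11*, *PHO12*, *PHO84*, *PHO89*, *PHM6* and *VIP1*, which are given with their lists below. Of the 5155 tested genes without it, 4.56% were called lower in *spn1 K192N* and 19.4% in *spn1 141-305*. With the E-box the median fold change was −0.09 in *spn1 K192N*, against −0.08 without it, and in *spn1 141-305* it was −0.12 with and −0.10 without.

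The nearest annotated gene on the start-codon side of each of the 10 genes was read as well, beside the shares of all tested genes called lower. Those shares were 4.80% in *spn1 K192N* and 18.8% in *spn1 141-305*. Of these neighbours *YHB1*, a flavohemoglobin gene transcribed away from *PHO81* across 1693 bases, was called lower in *spn1 K192N* (−0.36, adjusted p = 0.00941) and in *spn1 141-305* (−0.24, adjusted p = 0.0406). *ARO9*, an aromatic aminotransferase gene that diverges from *SPL2* across 608 bases, was called lower in *spn1 141-305* (−0.23, adjusted p = 0.0154) and had −0.15 in *spn1 K192N* (adjusted p = 0.152). *CTF19*, a kinetochore gene that diverges from *VTC3* across 632 bases, had −0.17 in *spn1 K192N* (adjusted p = 0.0503) and −0.13 in *spn1 141-305* (adjusted p = 0.0709). *TDA2*, which diverges from *VTC1* across only 478 bases, had 0.03 in either mutant. The other 6 neighbours, *RPC17*, *SEC4*, *NSE4*, *IZH2*, *TRM44* and *YFR035C*, were not called. These neighbours were picked out after their values had been seen.

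The genes most like the 3 most variable members were found by Pearson's r over the 9 libraries, as a description in which all points share the same libraries. *VTC3* was most like *PHO84*, the high-affinity phosphate transporter (r = 0.993), then *YDR415C* (0.967) and the acid phosphatase gene *PHO11* (0.966). *VTC4* was also most like *PHO84* (0.984), then *CYM1* (0.974) and *YDR415C* (0.971). *PHO81* was most like the kinase genes *PTK2* and *CTK1* (0.982 each) and its neighbour *YHB1* (0.98). Pearson's r does not take the size of a change into account. In *spn1 K192N* against WT *PHO84* had −1.23 and *PHO11* −0.91, while *YDR415C* had −0.16, *CYM1* −0.15, *CTK1* −0.17, *PTK2* −0.28 and *YHB1* −0.36.

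Other genes of the pathway were read from lists. Of 12 phosphate-responsive genes, 10 had an E-box in the same window. In *spn1 K192N* 7 of the 12 were called lower, where 4.80% of all tested genes were, and in *spn1 141-305* 6 of the 12, where 18.8% were. In either mutant 0 were called higher (0 at an unadjusted p below 0.05 in limma). *PHO84* stood at 14.83, 14.30 and 14.09 in *spn1 K192N*, at 15.00, 15.04 and 15.12 in *spn1 141-305*, and at 15.67, 15.68 and 15.54 in WT, with fold changes of −1.23 and −0.58 for the mutants in that order. *PHO89*, a sodium-coupled phosphate transporter, had −2.59 in *spn1 K192N* and −1.83 in *spn1 141-305*, and *PHO5*, the main secreted acid phosphatase, had −1.25 and −0.67 in the same order, all called lower. *PHO8*, the vacuolar alkaline phosphatase, was called lower in *spn1 K192N* (−0.52, adjusted p = 0.000366) and had −0.11 in *spn1 141-305* (adjusted p = 0.368). *PHO11* and *PHO12*, acid phosphatase genes, are near-identical, so reads may be shared between them. *PHO11* was called lower in *spn1 K192N* (−0.91, adjusted p = 8.69e-10) and in *spn1 141-305* (−0.57, adjusted p = 5.5e-06), while *PHO12* was called lower in *spn1 K192N* (−0.93, adjusted p = 1.18e-07) and had −0.15 in *spn1 141-305* (adjusted p = 0.259). *PHM6* was called lower in *spn1 K192N* (−0.16, adjusted p = 0.0228) and had −0.05 in *spn1 141-305*. *PHM8*, a phosphatase gene, and *GIT1*, a glycerophosphoinositol permease gene, were called lower in *spn1 141-305* (−0.26, adjusted p = 0.0126, and −0.17, adjusted p = 0.0118), and had −0.17 for *PHM8* and −0.04 for *GIT1* in *spn1 K192N*. The median of this list was −0.40 in *spn1 K192N*, beside −0.38 for the 10 genes, and −0.18 in *spn1 141-305*, beside −0.20. In *spn1 141-305* against *spn1 K192N* 6 of the 12 were called higher (*PHO5*, *PHO8*, *PHO11*, *PHO12*, *PHO84* and *PHO89*), where 0.621% of all tested genes were.

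The partners of the kinase and of the polymerase were read against the same shares of all tested genes called lower, 4.80% in *spn1 K192N* and 18.8% in *spn1 141-305*. Of 9 other cyclins of Pho85, 1 was called lower in *spn1 K192N* (*PCL5*, −0.34, adjusted p = 0.00285) and 2 in *spn1 141-305* (*PCL1*, −0.32, and *PCL8*, −0.20), which is 11.1% and 22.2% of this short list. *PCL5* was called higher in *spn1 141-305* than in *spn1 K192N* (0.35, adjusted p = 0.00494). Of 4 genes of polyphosphate breakdown and *VTC5*, only *PPN2*, a vacuolar polyphosphatase, was called lower in *spn1 K192N* (−0.55, adjusted p = 7.8e-05). In *spn1 141-305* it had −0.11 (adjusted p = 0.351), and it was called higher in *spn1 141-305* than in *spn1 K192N* (0.45, adjusted p = 0.00333). *PPN2* stood at 10.57, 10.29 and 10.23 in *spn1 K192N*, at 10.76, 10.74 and 10.93 in *spn1 141-305*, and at 11.00, 10.94 and 10.82 in WT, and it had no E-box in the window. *PPX1*, *PPN1* and *VTC5* were not called in any comparison.

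Of 7 enzymes on the path to and from inositol pyrophosphates, the signals read by SPX domains, 2 were called lower in *spn1 K192N* (*VIP1*, −0.32, and *PLC1*, −0.25), where 4.80% of all tested genes were. In *spn1 141-305*, where 18.8% were, it was 3 of the 7 (*KCS1*, −0.31, *VIP1*, −0.29, and *PLC1*, −0.29). *VIP1* and *KCS1* encode the inositol pyrophosphate kinases. Of 5 other proteins with an SPX domain, 0 were called lower in *spn1 K192N* by limma. At an unadjusted p below 0.05 it was 2, where 22.6% of all tested genes were lower. In *spn1 141-305*, where 18.8% of all tested genes were called lower against 4.80% in *spn1 K192N*, 4 of the 5 were, namely the low-affinity transporters *PHO87* (−0.26) and *PHO90* (−0.32), the vacuolar transporter *PHO91* (−0.28) and *SYG1* (−0.30). The difference between the alleles was not past the threshold for any of these 5 genes. The shares of all tested genes given for both lists do not take gene length into account. In the quartile of the longest genes 8.41% were called lower in *spn1 K192N* and 45.1% in *spn1 141-305*.

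**Figure D5:**
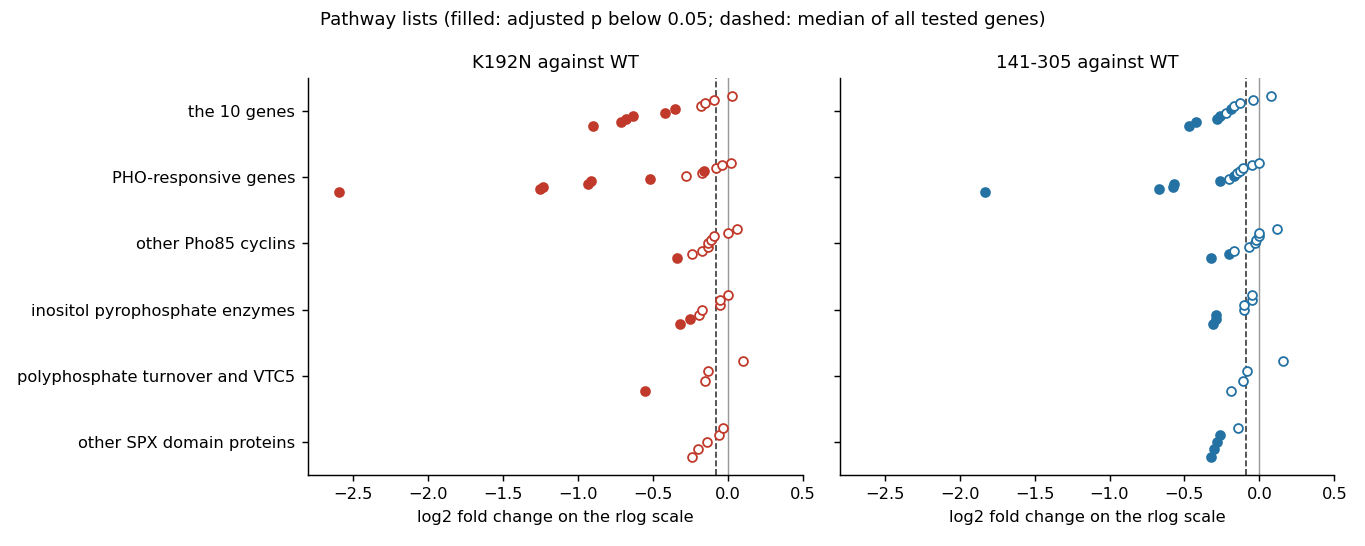
Fitted log2 fold changes against WT for the 10 genes and the 5 lists of other pathway genes in *spn1 K192N* and *spn1 141-305*, with filled points for genes past an adjusted p of 0.05 and a dashed line at the median of all tested genes. *PHO89* is lowest in both mutants, at −2.59 and −1.83, and the other Pho85 cyclins lie between −0.34 and 0.12.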

How the data were processed

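RNA-seq values came from the matrix that the authors deposited, on the regularized log2 (rlog) scale of DESeq2. According to the methods, the authors quantified poly-A RNA with Salmon v1.9 on *S. cerevisiae* (R64) and *S. pombe* transcripts, and DESeq2 (version 1.30.1, run in R 4.0.3) took size factors from the *S. pombe* genes. The deposited comparison tables, which hold the authors' fold changes and p-values, were not used. The 9 chromatin samples were not analysed here. No strand-marking step is named, so antisense RNA cannot be told apart. No annotated gene overlaps a member.

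The rlog values of all 9 libraries were fitted with limma 3.58.1 in R 4.3.3, with a coefficient for each genotype, a prior variance that followed the mean level and two-sided tests. P-values were adjusted (Benjamini-Hochberg) over the 5954 genes whose mean rlog reached log2(10). Partner genes were compared by exact permutation tests. Gene positions, promoters and names came from the RefSeq R64 assembly, to which 5896 identifiers matched. Python 3.11.15 was used with pandas 2.3.3 and scipy 1.17.1. The fit was tested on simulated data with independent errors and no shift of whole libraries. The error rate under such shifts was not tested.

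The members and the lists were chosen with earlier results of these data known. All 10 members are named, other list genes are given with values where they passed a test in at least 1 comparison, and likeness is given for the 3 members with the largest SD. Alternatives covered centring, the filter, a constant prior variance, fits of 2 genotypes at a time, a replicate block and the removal of each library in turn. The search windows of 300 and 1000 bases were added after the data were seen.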

Additional observations from a re-analysis of the deposited data

How the results depend on the processing

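Each of the 10 genes was refitted in 3 comparisons under 15 alternatives. Of these 450 refits 396 kept their direction and side of the threshold, 17 passed it newly, 31 no longer passed and 6 changed sign. The 6 calls in *spn1 K192N* against WT held in all 15. In *spn1 141-305* against WT *PHO81* held in 15, *VTC3* in 14, *SPL2* in 10, *VTC2* in 9 and *VTC4* in 6. *PHO80*, which has no E-box in the window and was not called in the main fit, was called lower in 6 of the 15. *VTC1*, likewise not called in the main fit, was called lower in 4. In *spn1 141-305* against *spn1 K192N*, *VTC3* held in 14, *VTC1* in 13 and *VTC4* in 8. The changes of sign concerned values near 0. *PHO2* in *spn1 K192N* was −0.0041 without WT replicate 3 (range with 1 library left out −0.0041 to 0.04). *PHO4* in *spn1 141-305* was 0.06 with centred libraries and 0.02 without replicate 3 of that strain (range −0.08 to 0.02). *PHO85* in *spn1 141-305* against *spn1 K192N* was −0.01 and −0.03 without *spn1 K192N* replicates 2 and 3, and −0.0026 without *spn1 141-305* replicate 2 (range −0.03 to 0.09). Members called lower in *spn1 141-305* against WT numbered 2 with centred libraries, where *PHO2* was called higher, and 3 with a prior variance that did not follow the level. Members called higher in *spn1 141-305* against *spn1 K192N* numbered 5 and 0 under the same 2 settings. Genes called lower over all numbered 159 in *spn1 K192N* with that prior, and in *spn1 141-305* 516 with centred libraries and 2077 with only its own and the WT libraries fitted. Genes called higher between the mutants numbered 102 with centred libraries and 6 with that prior. With each library left out, members called ranged from 6 to 8, from 1 to 7 and from 2 to 5 in the 3 comparisons, and all genes called from 50 to 2031, from 278 to 2038 and from 25 to 116. These ranges count genes called lower against WT and higher between the mutants. With 300 bases searched 3 members had an E-box. The cause of these changes was not tested.

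Same-numbered libraries correlated between −0.275 and 0.245 in their deviations from the genotype mean, and differently numbered ones between −0.448 and 0.341. With 3 libraries per genotype these values cannot decide whether libraries of the same number share a batch. With the replicate number as a block, 469 genes were called lower in *spn1 K192N* and 6 members, and 7 members in *spn1 141-305*, with *VTC1* and *PHO80* added. Depth is unknown, and 3 libraries per genotype limit the precision.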
